A study of Mus musculus with 4 samples.

Results

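The plasma cell program and J chain were followed here through 10 genes, Jchain, Prdm1, Irf4, Xbp1, Sdc1, Tnfrsf17, Mzb1, Ell2, Derl3 and Fkbp11, out of 34866 genes in the table of the series. The members were picked by name as plasma cell genes, and they were chosen on earlier results of the same libraries, in which the TPM of Jchain stood out. Their levels and their differences between libraries are therefore given as a description, with no test. All 4 libraries came from mice that carry the λ-MYC transgene, a human MYC gene under λ light chain regulatory sequences, together with a knocked-in Cre allele and an R26tdTom+/ki allele (λ-MYC Tom+/ki). In these mice the Cre recombinase switches on the Tomato (Tom) protein for good, so that Tom marks cells in which Cre was made in the past, and not its present expression. Tumors #1 and #2 were IgM+ Tom+ lymphomas of 2 such mice, and from each spleen B220+ IgM+ Tom+ cells and B220+ IgM+ Tom- cells were sorted, and each sort gave 1 RNA-seq library. The ages of the 2 mice are not given in the sources used here, no library came from a mouse without the transgene, and a tumor is 1 animal.

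Plasma cells arise when an activated B cell switches to the secretion of antibody. Irf4 and Prdm1 encode the transcription factors IRF4 and BLIMP-1 that drive this switch, BLIMP-1 by silencing B cell genes, and Xbp1 encodes the factor that enlarges the endoplasmic reticulum (ER). Sdc1 (CD138) and Tnfrsf17 (BCMA) encode surface receptors of plasma cells, and Ell2 encodes an elongation factor that favors the secreted form of the heavy chain message. Mzb1, Derl3 and Fkbp11 encode ER proteins, respectively a co-chaperone that serves IgM assembly, a component of the degradation of misfolded proteins, and a peptidyl-prolyl isomerase. Jchain encodes the joining chain that links IgM and IgA into polymers. Burkitt-like lymphomas, which the λ-MYC model was made to resemble, are tumors of B cells and not of plasma cells.

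Of the 10 members, 7 passed the filter on low values, a TPM (a level corrected for transcript length and scaled to the same total in each library) of 1 or more in 2 or more libraries, as did 11339 genes in all. Prdm1, Tnfrsf17 and Ell2 did not pass. Differences are given on the scale of log2(TPM + 1), which understates changes at low TPM. The number of reads behind a TPM is unknown. Immunoglobulin genes took 5.35% to 9.76% of the TPM of a library, with the highest share in Tom+ cells of tumor #2. Mitochondrial genes took 6.61% to 15.6%, with the higher shares in tumor #2. Pseudogenes took 23.4% to 31.3%, with the higher shares in tumor #1.

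The libraries held B cell RNA. All 8 B cell markers passed the filter, and their summed TPM was 2276 (Tom-) and 2057 (Tom+) in tumor #1, against 4802 (Tom-) and 5768 (Tom+) in tumor #2. Of the defining markers of other cells, Cd3e of T cells was at 0.0687 TPM or lower, Siglech of plasmacytoid dendritic cells was at 0.257 TPM or lower, and C1qa and C1qb of macrophages, Ly6g of granulocytes and Ncr1 of NK cells were listed at 0 throughout. Other markers were detected, among them Cd3d of T cells at 7.77 (Tom-) and 2.09 TPM (Tom+) in tumor #2, the granulocyte gene S100a9 at 2.41 TPM in Tom- cells of tumor #2, and the macrophage gene Cd68 at 1.92 to 6.41 TPM. In Tom+ cells of tumor #2, Cd8b1 and Cd3g of T cells were at 2.02 and 1.35 TPM. The part of such cells in the results was not tested. The summed TPM of the 12 T cell markers was 6.50 to 8.93 in tumor #1 and 21.1 in both libraries of tumor #2. It was 2.85 to 8.14 for 12 macrophage markers, 0.614 to 7.87 for 10 granulocyte markers and 0.225 to 1.31 for 9 NK cell markers. Each of these had its higher sums in tumor #2. For 10 erythroid markers it was 1.10 to 21.5, with the higher sums in tumor #1. The 10 markers of plasmacytoid dendritic cells, which also carry B220, summed to 90.1 to 199 TPM, but Spib, Irf8, Bst2 and Tcf4 in that list are also expressed by B cells. A further gene of that list, Cox6a2, was at 23.4 (Tom-) and 10.5 TPM (Tom+) in tumor #1, against 0.734 TPM in Tom- cells of tumor #2, and was listed at 0 in its Tom+ cells.

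Jchain was the member that differed most between the sorts. The gene lies on chromosome 5 (GRCm38, 88519809 to 88527891, minus strand). It was at 0.330 TPM in Tom- and 1.72 TPM in Tom+ cells of tumor #1, and at 1.24 TPM in Tom- and 209 TPM in Tom+ cells of tumor #2. A single library, Tom+ cells of tumor #2, was thus high, and the other libraries lay below 2 TPM. Within tumor #2 the TPM of Tom+ cells was 168 times that of Tom- cells, and within tumor #1 it was 5.21 times, between levels near the filter. On the log2 scale the differences were 6.55 in tumor #2 and 1.03 in tumor #1, a mean of 3.79 ± 3.90 (SD, n = 2 tumors), so the spread between the tumors was as large as the mean. Among the 11339 genes past the filter, Jchain had rank 14 by its excess in Tom+ cells of tumor #2, rank 5 with immunoglobulin genes set aside and rank 3 among 10079 protein-coding genes. In tumor #1 its rank was 352. Jchain was chosen because its TPM stood out in these libraries. Its rank in tumor #2 follows from that choice and is given as a description. In bulk RNA, a few cells with much Jchain and many cells with a little cannot be told apart.

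**Figure D1:**
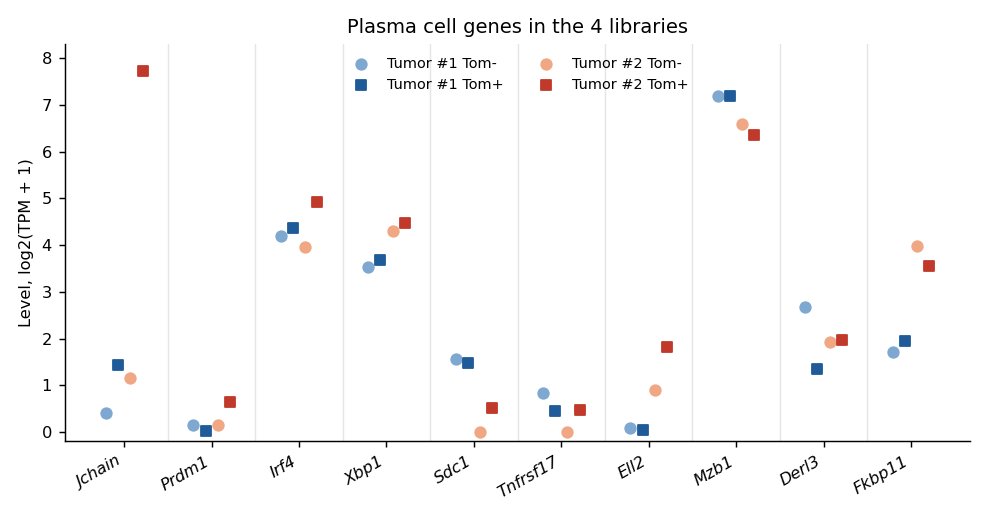
Level of the 10 plasma cell genes in each library, as log2(TPM + 1), with circles for Tom- and squares for Tom+ cells and 1 point per library. Jchain reaches 209 TPM in Tom+ cells of tumor #2 and stays under 2 TPM elsewhere, Mzb1, Irf4 and Xbp1 are present in all libraries, and Prdm1, Sdc1 and Tnfrsf17 are low in all.

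Promoter sequence is shown for the 2 members with the largest differences between Tom+ and Tom- cells of a mouse, Jchain in tumor #2 and Derl3 in tumor #1, as the 250 bases before the RefSeq transcription start (GRCm38.p6), read 5′ to 3′ on the strand of the gene. Windows were at hand for 9 of the 10 members, and any match in a window of Mzb1 is not reported here. The Jchain window is chr5:88527898-88528147, minus strand, with the core ACGTG of binding sites for ER stress factors such as XBP1 in capitals (on the opposite strand, as CACGT).

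Jchain: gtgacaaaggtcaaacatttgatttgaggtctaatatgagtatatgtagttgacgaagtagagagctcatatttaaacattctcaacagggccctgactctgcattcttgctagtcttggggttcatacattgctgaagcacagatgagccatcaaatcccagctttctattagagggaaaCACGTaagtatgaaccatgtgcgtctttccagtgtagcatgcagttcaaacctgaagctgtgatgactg

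The Derl3 window is chr10:75893148-75893397, plus strand. Its capitals mark an ER stress response element, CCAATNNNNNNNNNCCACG, on the opposite strand.

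Derl3: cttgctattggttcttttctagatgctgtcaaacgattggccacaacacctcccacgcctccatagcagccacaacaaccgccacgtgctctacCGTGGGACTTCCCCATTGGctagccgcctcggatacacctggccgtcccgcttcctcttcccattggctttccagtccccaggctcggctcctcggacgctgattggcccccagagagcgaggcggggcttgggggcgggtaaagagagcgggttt

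The element was searched on both strands with an exact match, and 0.113% of 32851 windows of the same length held it. Among windows of members other than Mzb1, that of Derl3 held it. The core ACGTG, found in the windows of Jchain and Derl3, was present in 16.6% of all windows, and the E-box CAGGTG, found in those of Prdm1, Xbp1 and Derl3, in 17.2%. The element TGACGTGG, which contains the core, the octamer ATGCAAAT and the composite site of IRF and Ets factors, GGAANNGAAA, were present in 0.563%, 1.60% and 2.30% of windows. They matched in no window of a member other than Mzb1. A match describes the letters and not binding.

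Among the factors of the program, Irf4 and Xbp1 were above 10 TPM in each library and Prdm1 was below 1 TPM. Irf4 (chromosome 13, 30749226 to 30766976, plus strand) was at 17.2 (Tom-) and 19.5 TPM (Tom+) in tumor #1, against 14.6 (Tom-) and 29.4 TPM (Tom+) in tumor #2. The Tom+ library of tumor #2 was the highest, and the other 3 lay close together. Its level in Tom+ cells was 1.13 times that in Tom- cells in tumor #1 and 2.02 times in tumor #2 (log2 differences 0.17 and 0.96, mean 0.57 ± 0.56, SD, n = 2 tumors). Xbp1 (chromosome 11, 5520659 to 5525893, plus strand) was at 10.6 (Tom-) and 11.7 TPM (Tom+) in tumor #1, against 18.7 (Tom-) and 21.2 TPM (Tom+) in tumor #2. Its Tom+ cells exceeded Tom- cells by 0.14 and 0.17 on the log2 scale, the closest pair of values among the members, while the tumors lay further apart than the sorts. Values per gene do not show whether the Xbp1 message was spliced to its active form. Prdm1 (chromosome 10, 44437177 to 44528501, minus strand), by contrast, was at 0.108 (Tom-) and 0.0180 TPM (Tom+) in tumor #1, against 0.105 (Tom-) and 0.570 TPM (Tom+) in tumor #2, under 1 TPM in each library, including the library with 209 TPM of Jchain.

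The surface receptors were low as well. All libraries came from cells sorted as B220+ IgM+, and the part of that sort in these levels was not tested. Sdc1 (chromosome 12, 8771323 to 8793715, plus strand) was at 1.95 (Tom-) and 1.78 TPM (Tom+) in tumor #1, was listed at 0 in Tom- cells of tumor #2 and was at 0.428 TPM in Tom+ cells. Tnfrsf17 (chromosome 16, 11313812 to 11320074, plus strand) was at 0.778 (Tom-) and 0.360 TPM (Tom+) in tumor #1, was listed at 0 in Tom- cells of tumor #2 and was at 0.390 TPM in Tom+ cells. Both thus had their highest value in Tom- cells of tumor #1 and not in the library high in Jchain. Ell2 (chromosome 13, 75706757 to 75772364, plus strand) was at 0.0609 (Tom-) and 0.0328 TPM (Tom+) in tumor #1, against 0.864 (Tom-) and 2.56 TPM (Tom+) in tumor #2, a log2 difference of 0.93 between the sorts of tumor #2. Within the annotated span of Ell2 lie an antisense gene, 1700037F03Rik, a sense intronic gene, Gm48302, and a snoRNA, Gm23127, which were not analysed here.

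Among the ER members, Mzb1 (chromosome 18, 35647267 to 35649367, minus strand) was the most abundant, at 145 (Tom-) and 144 TPM (Tom+) in tumor #1, against 94.8 (Tom-) and 80.6 TPM (Tom+) in tumor #2. Its percentile was 88.3 to 93.4 among the genes past the filter in each library, and the sorts of a tumor were close, with log2 differences of -0.013, which turned to 0.0025 with trimmed-mean scaling of the libraries, and -0.23. The annotation places another gene, SPATA24, over 2100 bases of Mzb1 on the same strand. SPATA24 has no value in the series, and whether reads of Mzb1 were divided is unknown. Derl3 (chromosome 10, 75893413 to 75895941, plus strand) was at 5.39 (Tom-) and 1.54 TPM (Tom+) in tumor #1, against 2.80 (Tom-) and 2.93 TPM (Tom+) in tumor #2. Its Tom+ cells were lower by 1.33 on the log2 scale in tumor #1 and level in tumor #2 (0.046). Fkbp11 (chromosome 15, 98724366 to 98728198, minus strand) was at 2.28 (Tom-) and 2.88 TPM (Tom+) in tumor #1, against 14.8 (Tom-) and 10.7 TPM (Tom+) in tumor #2, with log2 differences between the sorts of 0.24 and -0.43. Derl3 and Fkbp11 thus did not share the pattern of Jchain.

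**Figure D2:**
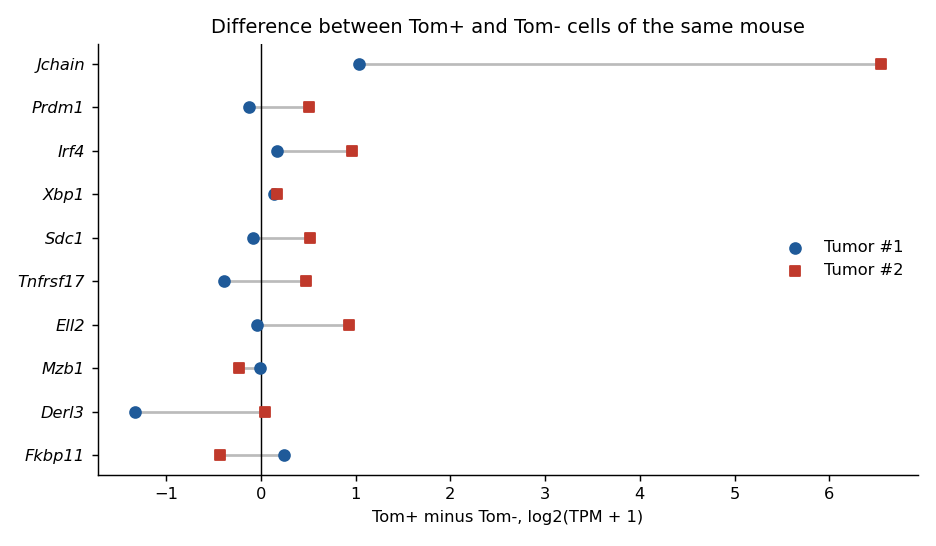
Difference of log2(TPM + 1) between Tom+ and Tom- cells of the same mouse for each member, with a circle for tumor #1, a square for tumor #2 and a line joining them. Jchain lies at 1.03 and 6.55, Irf4 and Xbp1 are on the positive side in both tumors, and 6 members have opposite signs in the tumors.

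Counted by direction, Jchain, Irf4 and Xbp1 were higher in Tom+ cells of both tumors. These were 3 of the 7 members past the filter, where 21.6% of the 11339 genes past it were higher in both. Mzb1 was lower in both, 1 of the 7, where 29.5% of genes were, but not with trimmed-mean scaling. The other 6 of the 10 members had opposite signs in the tumors, 3 of them past the filter. Of the 11339 genes, 5538 had opposite signs or no difference in a tumor. The median over the 7 members past the filter was 0.14 in tumor #1 and 0.17 in tumor #2, beside medians of -0.0029 and -0.057 over all genes past the filter. With the 3 members under the filter included it was -0.026 in tumor #1 and 0.49 in tumor #2. Several of these values rest on levels under 1 TPM, and since the choice of members used this contrast, nothing is read from the counts.

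Ordered by TPM, which can be set side by side between genes, Mzb1 came first in 3 libraries and second, after Jchain, in Tom+ cells of tumor #2. In tumor #1 it was followed by Irf4 and Xbp1 in both sorts. In Tom- cells of tumor #2 the next were Xbp1, Fkbp11 and Irf4, between 14.6 and 18.7 TPM. With 1 library per group, the order of those 3 is not resolved. Jchain was in place 8 (Tom-) and place 6 (Tom+) in tumor #1, place 6 in Tom- cells of tumor #2 and place 1 in Tom+ cells. Prdm1 was in place 8 to 10 in each library.

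Several members differed between the tumors in both sorts, as did many of the genes past the filter, so the counts are a description. Both libraries of tumor #2 were above both of tumor #1 for Xbp1, Ell2 and Fkbp11. Ell2 did not pass the filter, which leaves 2 of the 7 members past it, where 44.8% of genes past the filter were above. Both libraries of tumor #2 were below for Sdc1 and Mzb1, 2 of the 7, where 23.7% of genes were. The remaining 5 of the 10 members overlapped, Jchain among them, whose level in Tom- cells of tumor #2 was below that in Tom+ cells of tumor #1. Fkbp11 differed between the tumors by 2.27 in Tom- and 1.59 in Tom+ cells on the log2 scale, and its TPM in tumor #2 was 6.48 times that of tumor #1 in Tom- cells and 3.72 times in Tom+ cells. Mzb1 was at 0.653 and 0.560 times the level of tumor #1. Over all genes past the filter, the median of tumor #2 was above that of tumor #1 by 0.23 in Tom- and 0.19 in Tom+ cells, and by 0.054 and 0.047 after trimmed-mean scaling. With that scaling Xbp1 remained higher in tumor #2 by 0.58 and 0.66. With 1 mouse per tumor this contrast has no test.

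The partners of J chain, the heavy chains of IgA and IgM, are given beside it. Igha was at 0.0549 TPM in Tom- cells of tumor #1, was listed at 0 in Tom+ cells, and was at 0.207 TPM (Tom-) and 31.0 TPM (Tom+) in tumor #2. Ighm was at 1334 (Tom-) and 1255 TPM (Tom+) in tumor #1, against 2191 (Tom-) and 3652 TPM (Tom+) in tumor #2. The library high in Jchain was therefore also the highest in both heavy chains. Per 1000 TPM of Ighm, Jchain was at 0.247 (Tom-) and 1.37 TPM (Tom+) in tumor #1, against 0.568 (Tom-) and 57.1 TPM (Tom+) in tumor #2. Igha was expressed in cells sorted as IgM+, and its part in the level of Jchain was not tested.

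Of the 12 constant region genes of immunoglobulins, 6 passed the filter, and all 6 were lower in Tom+ cells of tumor #1 (median -0.14) and higher in Tom+ cells of tumor #2 (median 0.55). Over all 11339 genes past the filter, 5538 had opposite signs in the tumors, in either direction, or no difference in a tumor. The share lower in tumor #1 and higher in tumor #2 was not counted apart. By limma, fitted over the 11339 genes in paired form and adjusted with the Benjamini-Hochberg method, 0 of the 6 had an adjusted p-value below 0.05, and over all genes 0%. Before adjustment, 530 genes (4.67%, where chance alone gives about 567) were below 0.05, and 0 of the 6. Among these 6 the largest mean differences were those of Igkc (0.36, SE 0.29), Ighm (0.32, SE 0.25) and Iglc2 (0.29, SE 0.37).

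Among genes past the filter, those whose pattern over the 4 libraries was closest to that of Jchain were variable (V) gene segments of immunoglobulins. By Euclidean distance between log2(TPM + 1) values centered on each gene's mean, the 5 nearest of the genes past the filter were Ighv3-8 (distance 0.90), Igkv8-28 (1.06), Ighv5-16 (1.15), Igkv6-25 (1.28) and Igkv19-93 (1.34). Ighv3-8 was listed at 0 in either Tom- library and was at 1.87 TPM in Tom+ cells of tumor #1 and 169 TPM in those of tumor #2. In Tom+ cells of tumor #2 the 5 segments lay between 109 and 177 TPM, and elsewhere at 3.34 TPM or lower. Ighv3-8, Igkv8-28, Ighv5-16 and Igkv19-93 reached 1 TPM in the Tom+ libraries alone, and so passed the filter only through them. Igha, at 31.0 TPM in Tom+ cells of tumor #2 and below 1 TPM elsewhere, did not pass and was not a candidate. The filter thus shaped which genes could be near, and their nearness is given as a description. With a pseudocount of 0.1 in place of 1, 2 of the 5 were again among the nearest, Ighv3-8 (distance 3.08) and Igkv6-25. The others were then the V segment Igkv2-137 and 2 genes that are not V segments, Zfp236 (3.09) and Gm45665 (3.11). When immunoglobulin genes were set aside, an alternative added after seeing the data, the nearest were Zfp236 (2.37), the pseudogene Gm45665 (2.40), Flt3l (2.72), Tnrc6b (2.83) and the pseudogene Gm37313 (2.94), all further away. Nearness over 4 libraries, 1 of which is far from the rest, describes that library above all.

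The same library held more V segments above a fixed cut than the others. Among 218 V segments, 6 (Tom-) and 8 (Tom+) reached 10 TPM in tumor #1, against 12 (Tom-) and 65 (Tom+) in tumor #2. Their summed TPM was 8866 (Tom-) and 7738 (Tom+) in tumor #1, against 7919 (Tom-) and 15997 (Tom+) in tumor #2. The count at a fixed cut also depends on this sum. The most abundant segment took 42.0% and 42.7% of the V gene TPM in tumor #1, and 36.3% and 20.1% in tumor #2. Tom+ cells of tumor #2 thus differed from the other libraries in the number of V segments at 10 TPM or more as well as in Jchain. The part of one in the other was not tested.

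**Figure D3:**
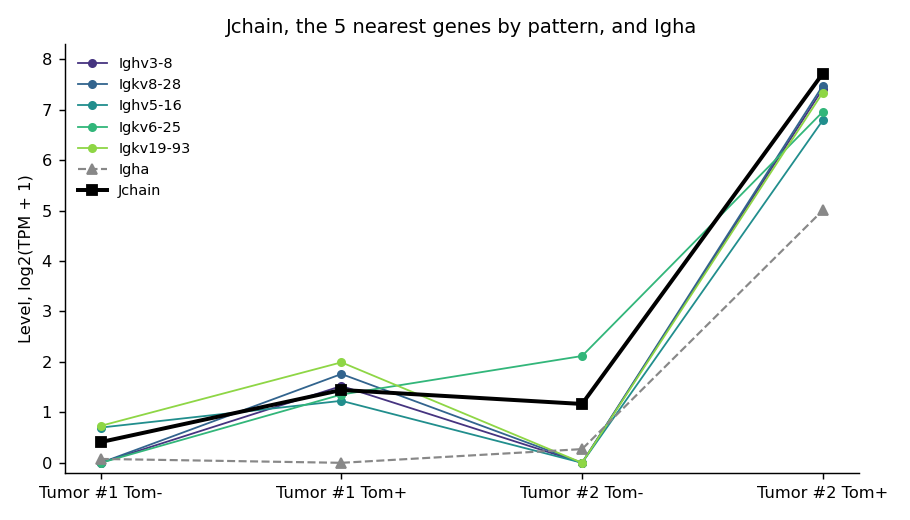
Level, as log2(TPM + 1), of Jchain (black squares), the 5 V gene segments nearest to it and Igha (grey triangles) in the 4 libraries, joined by lines to guide the eye. The 5 segments reach 109 to 177 TPM and Igha 31.0 TPM in Tom+ cells of tumor #2, where Jchain is at 209 TPM.

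Other genes of antibody-secreting cells did not follow Jchain as a group. In a list of 22, 19 passed the filter. Of these, Tom+ cells had more of 5 and less of 7 in both tumors, beside 21.6% and 29.5% of all genes past the filter. The counts were 6 and 4 with trimmed-mean scaling, and 5 and 5 with immunoglobulin genes left out. Of the 19, 0 had an adjusted p-value below 0.05 by limma. The median difference was -0.032 in tumor #1 and 0.031 in tumor #2. Of the 19 genes of this list past the filter, Eaf2 had the largest mean difference. It encodes a partner of ELL family elongation factors such as ELL2. Eaf2 was at 4.71 (Tom-) and 6.77 TPM (Tom+) in tumor #1, against 1.40 (Tom-) and 10.4 TPM (Tom+) in tumor #2 (log2 difference 1.34, SE 0.54, adjusted p = 0.936). Next were Trib1, a pseudokinase gene (0.33, SE 0.21), and Plpp5, a lipid phosphatase gene (0.26, SE 0.21), both with an adjusted p-value of 0.936 and both higher in Tom+ cells of both tumors.

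Genes of the secretory apparatus had small median differences between the sorts. All 25 genes of ER folding and quality control passed the filter. In both tumors Tom+ cells had higher values for 3 of them, beside 21.6% of all genes, and lower values for 8, beside 29.5%. Of these 25 genes, 0 passed the adjusted test. Their median was -0.12 in tumor #1 and -0.0070 in tumor #2, the latter turning to 0.049 with trimmed-mean scaling and 0.061 with immunoglobulin genes left out. Dnajb9, an ER co-chaperone and target of XBP1, was at 3.81 (Tom-) and 5.32 TPM (Tom+) in tumor #1, against 8.72 (Tom-) and 13.9 TPM (Tom+) in tumor #2 (log2 difference 0.51, SE 0.20, adjusted p = 0.936). Derl1, a relative of Derl3 (-0.32, SE 0.18), and the ER oxidase gene Ero1l (-0.23, SE 0.16) were on the negative side in both tumors, with the same adjusted p-value. The 23 genes of the translocon, signal peptidase and oligosaccharyltransferase, which carry new proteins into the ER, all passed the filter. Of these, 5 were higher and 10 lower in both tumors, beside the same 21.6% and 29.5% of all genes. Again 0 of the 23 passed the adjusted test. Their median was -0.10 in tumor #1 and -0.037 in tumor #2. The latter was 0.019 with trimmed-mean scaling and 0.031 with immunoglobulin genes left out.

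Within that list the gene that stood out was Srprb, the beta subunit of the receptor for the signal recognition particle. Srprb was at 113 (Tom-) and 58.7 TPM (Tom+) in tumor #1, against 105 (Tom-) and 51.4 TPM (Tom+) in tumor #2. Both Tom+ libraries thus lay well below both Tom- libraries (log2 difference -0.98, SE 0.13, adjusted p = 0.936 by limma). Rpn2, an oligosaccharyltransferase subunit, had a mean difference of -0.49 (SE 0.21), mostly from tumor #1, and Sec61g, a translocon subunit, had 0.29 (SE 0.26). Before adjustment, Srprb was the 1 gene with a limma p-value below 0.05 in the lists of antibody-secreting cells, ER folding and the translocon. Of all genes past the filter, 4.67% had such a p-value.

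B cell identity genes, which are silenced when plasma cells form, leaned to lower values in Tom+ cells. Of 23 listed genes 19 passed the filter, and 15 of the 19 were at lower TPM in the Tom+ library of either tumor, beside 29.5% of all genes, while 1, Cxcr5, was higher in both. Taken singly, 17 were lower in tumor #1 and 16 in tumor #2. The median difference was -0.32 in tumor #1 and -0.20 in tumor #2, and 0 members passed the adjusted test. With trimmed-mean scaling, or with immunoglobulin genes left out, 13 of the 19 were lower in both. The list was chosen with earlier results of these data known, and its genes are not independent of each other. The counts are therefore a description. Among the 19 the largest mean differences were those of Ebf1, a factor of B lineage commitment, Irf8 and the chemokine receptor gene Cxcr5. Ebf1 was at 26.9 (Tom-) and 21.3 TPM (Tom+) in tumor #1, against 87.7 (Tom-) and 50.5 TPM (Tom+) in tumor #2 (-0.55, SE 0.19). Irf8 was at 25.2 (Tom-) and 18.9 TPM (Tom+) in tumor #1, against 71.6 (Tom-) and 45.5 TPM (Tom+) in tumor #2 (-0.52, SE 0.16). Cxcr5 was at 0.577 (Tom-) and 0.623 TPM (Tom+) in tumor #1, against 3.68 (Tom-) and 8.21 TPM (Tom+) in tumor #2 (0.51, SE 0.34). All 3 had an adjusted p-value of 0.936.

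Before adjustment, limma gave 3 of the 19 identity genes past the filter a p-value below 0.05, all on the lower side. Over all genes past the filter the share in either direction was 4.67%, 530 genes where chance alone gives about 567. The 3 were Irf8, H2-Eb1 and Spib, the last 2 named after their values were seen. Pax5, which BLIMP-1 silences, was at 241 (Tom-) and 284 TPM (Tom+) in tumor #1, against 511 (Tom-) and 328 TPM (Tom+) in tumor #2, in opposite directions. It was thus abundant in each library, that with 209 TPM of Jchain included. Of the 8 B cell markers, all 8 were lower in Tom+ cells of tumor #1 and 7 in those of tumor #2. In both tumors 7 were lower, beside 29.5% of all genes past the filter. The median over the 8 markers was -0.28 in tumor #1 and -0.32 in tumor #2. Their summed TPM, Ighm included, was nonetheless higher in Tom+ than in Tom- cells of tumor #2.

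**Figure D4:**
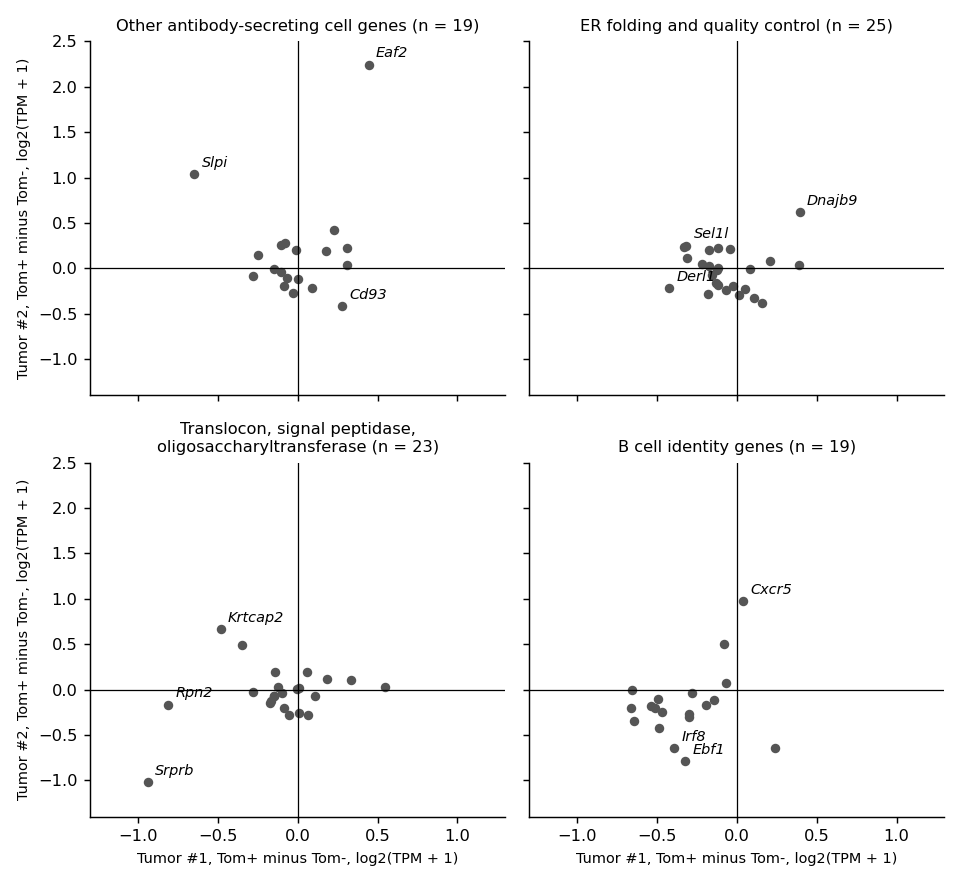
Difference of log2(TPM + 1) between Tom+ and Tom- cells in tumor #1 (horizontal) and tumor #2 (vertical) for the genes of 4 lists that passed the filter, 1 point per gene, with the 3 genes farthest from 0 named. Of the B cell identity genes, 15 of 19 have negative values on both axes, and Eaf2 and Srprb lie apart from the other genes of their lists.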

How the data were processed

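Sorted B220+ IgM+ Tom+ and Tom- splenocytes of 2 mice gave 4 libraries. The authors called bases with CASAVA 1.8, used Cutadapt on 60-base single reads, ran Salmon (1.9 in the submitters' processing notes) against GRCm38 transcripts, and deposited TPM per gene. How transcripts were summed to genes is not given in the sources used here. Each library sums to 1000000 TPM, which keeps no record of depth, so no counting interval is given, and the authors' edgeR test of paired samples, which needs counts, was not run. GENCODE M21 named 34652 of 34866 identifiers. Values were analysed as log2(TPM + 1) with limma 3.58.1 in R 4.3.3 (variance trend, Tom status and tumor as terms, 1 residual degree of freedom). The tumor was a block because both libraries of a tumor come from 1 mouse. The script was run on simulated data with changes larger than most of those described here, so its ability to find smaller changes was not tested. Python 3.11.15 with pandas 2.3.3 and matplotlib 3.10.9 made the summaries and plots.

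The members and lists were chosen with earlier results of these data known, and the motifs and V segment counts after seeing the data. Genes named were the members, in each list the 3 largest mean differences, the 5 genes nearest to Jchain, Ighm and Igha. Some genes that the rule names are not reported here. Alternatives were the fit without the block, a pseudocount of 0.1, no filter, a mean TPM of 5 or more, trimmed-mean scaling (30% of ratios and 5% of levels trimmed at each end), immunoglobulin genes left out, no variance trend and each tumor left out.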

Additional observations from a re-analysis of the deposited data

Results flagged for a closer look

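Of the 10 members, 6 had opposite signs in the 2 tumors for the difference between Tom+ and Tom- cells, with 1 pair of libraries per tumor, and the difference between the tumors was not tested. Tumor #2 minus tumor #1, the difference was 1.38 on the log2 scale for Derl3, 0.97 for Ell2, 0.86 for Tnfrsf17, 0.63 for Prdm1, 0.60 for Sdc1 and -0.67 for Fkbp11. Prdm1 and Tnfrsf17 stayed under 1 TPM in all libraries, and Sdc1 under 2 TPM. The median of the immunoglobulin constant region genes also had opposite signs in the tumors, 0.68 apart, as did that of the other genes of antibody-secreting cells, 0.064 apart, again without a test.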

How the results depend on the processing

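The count of genes with an adjusted p-value below 0.05 was 0 under each of the 7 alternative fits, and the count at an unadjusted p-value below 0.05 was 362 to 638 except without the replicate block, where it dropped from 530 to 140. In each pathway list, 0 members passed the adjusted test under these fits, except that the immunoglobulin constant regions have no value where immunoglobulin genes were left out. The median over the members between Tom+ and Tom- cells was 0.23 as a mean of the tumors, -0.026 without tumor #2 and 0.49 without tumor #1, 0.58 with a pseudocount of 0.1, and 0.22 without Jchain. Jchain was higher in Tom+ cells of both tumors under each scaling and pseudocount tried, with 1.03 to 2.08 in tumor #1 and 6.55 to 7.28 in tumor #2. The small values of Prdm1, Sdc1, Tnfrsf17 and Ell2 depend on the pseudocount. In tumor #2 the difference of Sdc1 went from 0.51 to 2.40 and that of Tnfrsf17 from 0.48 to 2.29 with a pseudocount of 0.1, since both were listed at 0 in Tom- cells. With 2 tumors, a fit without either has no residual degrees of freedom and gives a value with no test.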
